A study of Mus musculus with 39 samples.

Results

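The testis-specific serine kinases are a small family of protein kinases of male germ cells. Tssk1, Tssk2, Tssk3, Tssk4 and Tssk6 were examined together with Tsks, which encodes a substrate and binding partner of the Tssk1 and Tssk2 kinases. Each gene was read from the array probe set annotated with its symbol alone, and where a gene had several such probe sets the one with the highest mean was to be taken. All 6 listed genes were found, each had 1 such probe set, and all 6 were among the 19007 genes tested. Gene expression was measured with Affymetrix arrays in whole testis of 39 mice, as log2 intensity after RMA, a method that corrects background, normalizes between arrays and summarises probes. At 2 months there were 3 prKO mice (Sf1:Cre, Prkar1a fl/fl), 4 srKO mice (Amh:Cre, Prkar1a fl/fl), 4 lrKO mice (Cyp11a1:Cre, Prkar1a fl/fl) and 8 wild-type littermates (WT). At 2 weeks there were 4 prKO, 4 srKO, 4 lrKO and 8 WT mice. Prkar1a encodes a regulatory subunit that holds protein kinase A inactive. The Sf1 promoter drives Cre in somatic precursors of the gonad and adrenal cortex, the Amh promoter in Sertoli cells, and the Cyp11a1 promoter in steroidogenic cells such as Leydig cells. All 3 drivers are used to target somatic cells, whereas the kinases are made in germ cells. The extraction label names adrenal glands, whereas the tissue label, the titles and the design text name testis.

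Spermatogenesis passes from spermatogonia through meiosis to round spermatids, which then elongate, condense their chromatin and build a flagellum. The testis-specific serine kinases appear late in this sequence, mostly after meiosis, and are used in the remodelling of the spermatid. In mice, joint loss of Tssk1 and Tssk2 makes males sterile, loss of Tssk6 disturbs chromatin condensation and sperm-egg fusion, and loss of Tssk4 impairs sperm motility. The first wave of spermatogenesis has not reached spermatids in a mouse testis at 2 weeks, whereas the adult testis at 2 months holds all stages. In RNA of whole testis, fewer cells of a type and less RNA per cell cannot be told apart.

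Tssk1 and Tssk2 lie next to each other among the protein-coding genes of chromosome 16 in the RefSeq annotation. The 250 bases before the annotated start of these genes are shown because these members are neighbours, and those of Tssk6, on chromosome 8, because it had the largest differences among the 6 genes in both prKO and srKO at 2 months. RefSeq windows of build GRCm38.p6 were matched for 6 of 6 genes by symbol. All printed windows are on the plus strand, 5' to 3', and capitals mark matches to TGACNTCA in Tssk1 and Tssk2, and to TGACG and GTTNCC in Tssk6. The arrays do not measure binding to these windows.
Tssk1 (chr16:17893953-17894202): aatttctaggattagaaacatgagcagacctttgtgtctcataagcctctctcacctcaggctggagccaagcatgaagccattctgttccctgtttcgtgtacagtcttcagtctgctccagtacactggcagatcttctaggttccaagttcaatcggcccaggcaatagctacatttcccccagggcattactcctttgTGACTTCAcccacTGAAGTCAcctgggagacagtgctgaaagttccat
Tssk2 (chr16:17898387-17898636): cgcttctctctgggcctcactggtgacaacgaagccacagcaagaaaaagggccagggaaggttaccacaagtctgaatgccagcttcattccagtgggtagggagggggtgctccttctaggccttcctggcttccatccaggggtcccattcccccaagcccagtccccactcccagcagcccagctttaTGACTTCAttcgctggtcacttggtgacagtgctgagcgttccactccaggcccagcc
Tssk6 (chr8:69901934-69902183): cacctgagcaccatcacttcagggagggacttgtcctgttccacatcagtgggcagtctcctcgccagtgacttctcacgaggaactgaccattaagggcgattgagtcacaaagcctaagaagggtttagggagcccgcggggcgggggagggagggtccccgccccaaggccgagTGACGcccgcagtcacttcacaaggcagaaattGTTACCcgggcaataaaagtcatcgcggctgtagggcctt

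Motifs were chosen after the windows had been read and were searched on both strands. The cyclic AMP response element TGACGTCA, to which CREM and CREB bind, was in 0 of the 6 windows and in 1.55% of 32851 windows of this length. The looser form TGACNTCA, which includes that element, was in 2 of 6 windows and in 7.49% of all. Tssk1 had 2 matches, 48 and 35 bases before its start, and Tssk2 had 1, 58 bases before its start. The short form TGACG, which is contained in TGACGTCA, was in 1 of 6 windows, that of Tssk6 at 73 bases before the start, and in 17.8% of all. GTTNCC, a part of the X-box that RFX factors bind, was in 5 of 6 windows and in 39.4% of all, and the TATA box TATAAA was in 0 of 6 and in 12.4% of all. The longest run of bases shared by the Tssk1 and Tssk2 windows was 11 bases. A match in such a window describes its letters only.

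The deleted gene was examined first. Prkar1a read 8.66, 8.63 and 8.36 in prKO at 2 months, against a WT median of 8.88 and a lowest WT value of 8.61, and the difference was -0.30 ± 0.09 (SE, limma, adjusted p = 0.0078). In srKO at 2 months it was 0.24 higher than in WT (adjusted p = 0.03), and the lrKO differences of 0.04 at 2 months (adjusted p = 0.94) and 0.05 at 2 weeks (adjusted p = 0.84) were not called. At 2 weeks it was lower in prKO (-0.78, adjusted p = 4.5e-07) and srKO (-0.48, adjusted p = 0.0022). Prkar1a was thus not lower than in WT in the arrays labelled srKO at 2 months or in those labelled lrKO. The WT arrays were uneven at both ages. At 2 months replicates 1 to 4 read 8.61, 8.81, 8.74 and 8.74, and replicate 5, the lowest of replicates 5 to 8, read 8.95. At 2 weeks replicates 1 to 4 read 8.89, 8.84, 8.95 and 8.86, and replicate 5, again the lowest of replicates 5 to 8, read 8.99. The lowest srKO array at 2 months, replicate 1 (8.98), lay below WT replicate 7. Each driver is used to target only some cells of the testis, so RNA of whole testis cannot show whether those cells lost the gene. Whether the probe set covers the deleted exons was not tested, which also limits this check. All groups are named here by their labels. Median intensities per array ran from 5.81 to 5.96 at 2 months and from 5.96 to 6.02 at 2 weeks. Adam7, a gene of the epididymis, the duct attached to the testis, exceeded 5.5 in 6 arrays and reached 11.7 in prKO replicate 1 at 2 months.

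All 6 genes were far higher in WT at 2 months than in WT at 2 weeks. In the adult WT arrays Tssk2 had a lowest value of 11.01, a median of 11.47 and a highest of 11.66, against 4.71, 4.92 and 5.42 in WT at 2 weeks. Tssk6, a kinase needed for chromatin condensation in mouse spermatids, had 8.75, 8.91 and 9.33 at 2 months, against 4.90, 5.03 and 5.58 at 2 weeks. The ages did not overlap for any of the 6 genes. The measured difference was 6.44 ± 0.11 for Tssk2, or at least 86.9-fold, 5.28 ± 0.09 for Tssk3 (38.9-fold), 4.38 ± 0.10 for Tssk1 (20.8-fold) and 3.88 ± 0.14 for Tssk6 (14.7-fold). Tsks differed by 3.76 ± 0.09 (13.58-fold) and Tssk4 by 3.12 ± 0.15 (8.70-fold). The 2-week WT means lay between 4.97 (Tssk2) and 6.36 (Tsks), levels that were not shown to be above background, so these folds are lower bounds. By the test 6 of 6 passed upward, where 26.7% of the 19007 genes did, and 6 of 6 had every 2-month array above every 2-week array, where 20.1% did (limma with all 8 groups, Benjamini-Hochberg, highest adjusted p among the 6 genes 5.1e-20). The median of all genes was -0.24 between the ages and -0.12 when each array was centred on its median. Relative to that median the 6 genes lay between 3.36 and 6.68 higher. Of all calls, 32.7% were upward, and 39.9% were after centring.

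**Figure D1:**
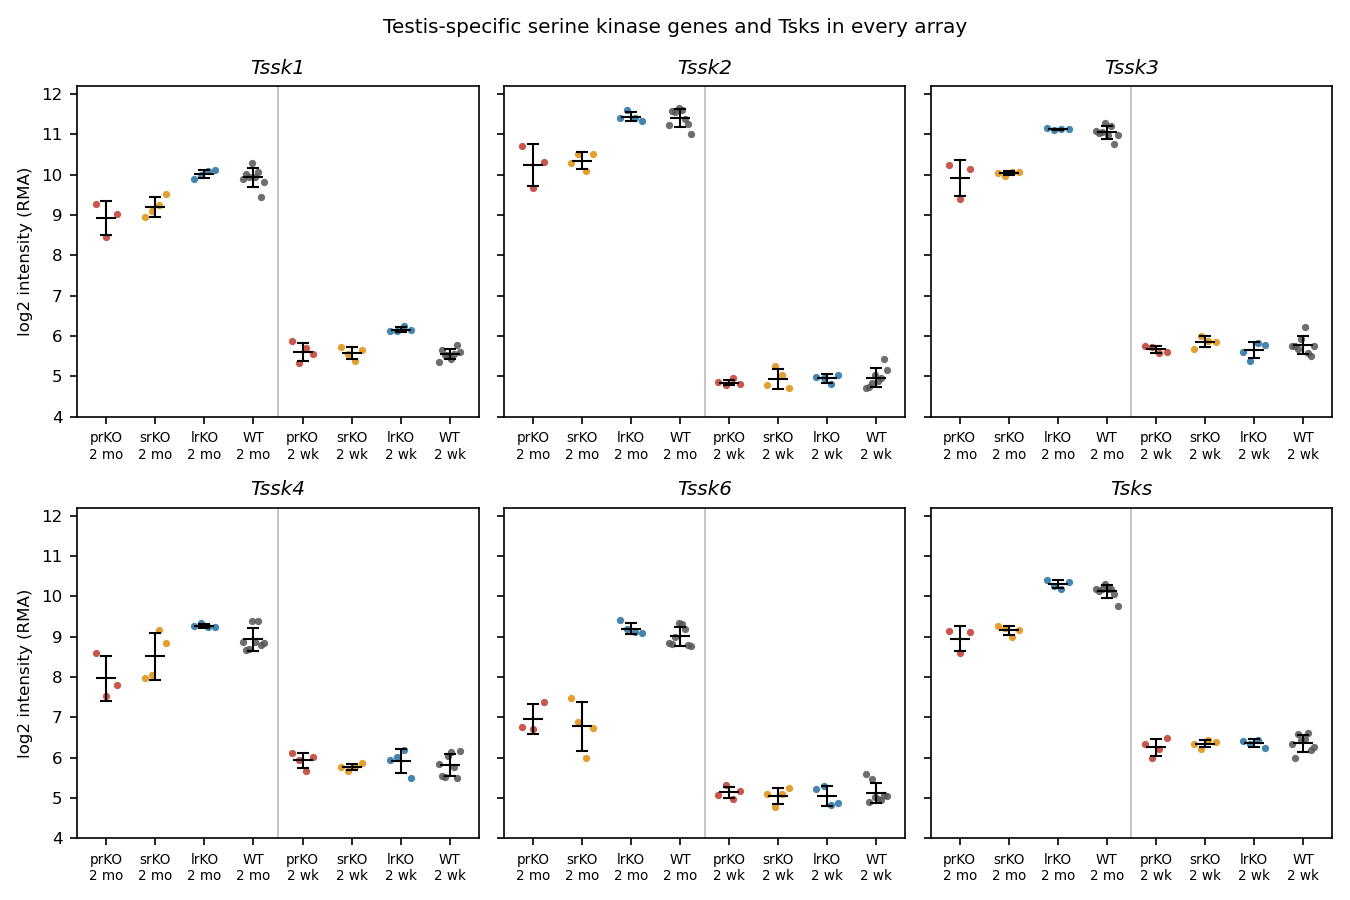
Log2 intensity (RMA) of each gene in each of the 39 arrays, by group. Points are mice, and bars give the mean and SD, with 2 months on the left and 2 weeks on the right of each panel. In Tssk6 the prKO and srKO arrays at 2 months lie between 6.00 and 7.49, whereas the lowest WT array is at 8.75.

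Stage-specific lists showed the same ages apart. In WT at 2 months against 2 weeks, 12 of 13 elongating spermatid genes and 13 of 14 round spermatid genes passed the test upward, with medians of 6.59 and 4.11, and 1 gene of each passed it downward. Over all genes 55% passed downward. The elongating spermatid gene that passed downward was Odf1, whose 2 single-symbol probe sets disagreed. The one used averaged 9.626 in WT at 2 months and 10.004 at 2 weeks, and the other averaged 11.452 and 5.361. Cabyr, a sperm tail protein that is also among the partners of the kinases, was 5.34 higher. Of the 12 spermatogonial genes 10 passed the test downward and 1 upward, with a median of -1.33. Among the 10 tested partners and substrates 6 passed it upward and 2 downward. Among the regulators of the spermatid programme 13 of 14 passed it upward and 1 downward, and Fhl5, a coactivator of CREM, was 4.22 higher.

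In prKO at 2 months all 6 genes were lower than in WT, and Tssk6 by the most. Tssk6 read 6.77, 6.71 and 7.39 in prKO, against 8.75, 8.91 and 9.33 as the lowest, median and highest WT values. All 3 prKO arrays lay below all 8 WT arrays. The difference was -2.05 ± 0.22, or 4.14-fold lower (limma, adjusted p = 3.9e-07).

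The neighbours Tssk1 and Tssk2 encode kinases that bind and phosphorylate the Tsks protein. Tssk1 read 9.27, 8.47 and 9.03 in prKO, against 9.46, 9.95 and 10.30 as lowest, median and highest in WT. Tssk2 read 10.71, 9.67 and 10.33 in prKO, against 11.01, 11.47 and 11.66 in WT. No array overlapped between the groups in either gene, and replicate 2 was the lowest of the prKO arrays in both. The differences were -1.01 ± 0.16 for Tssk1 (2.01-fold, adjusted p = 3e-05) and -1.17 ± 0.17 for Tssk2 (2.25-fold, adjusted p = 1.1e-05). The genes are close relatives, and whether each probe set reads only its own gene was not tested.

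Tsks, the substrate, read 9.13, 8.59 and 9.12 in prKO, against 9.76, 10.18 and 10.30 in WT, and fell by 1.17 on the log2 scale (SE 0.11, 2.26-fold, adjusted p = 1.4e-07). Tssk3 read 10.23, 9.41 and 10.13 in prKO, against 10.75, 11.05 and 11.29 in WT, and fell by 1.13 (SE 0.13, 2.19-fold, adjusted p = 8.1e-07). Both were lower in every prKO array than in any WT array. Tssk4 phosphorylates the outer dense fibre protein Odf2 in mice. It read 8.60, 7.53 and 7.79 in prKO, against 8.67, 8.85 and 9.39 in WT, and fell by 0.97 (SE 0.24, 1.95-fold, adjusted p = 0.0022). The groups did not overlap, but replicate 1 of prKO lay close to the lowest WT array.

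By the test 6 of 6 genes were lower in prKO, where 22.4% of all genes were, and 6 of 6 lay below WT in every array, where 13.8% of all genes did. Their median difference was -1.15, and that of all genes was 0.02. Without the arrays high in Adam7, prKO replicate 1 among them, an alternative added after the data were seen, the differences lay between -1.94 (Tssk6) and -1.20 (Tssk1), and 6 of 6 passed the test.

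In srKO at 2 months 5 of the 6 genes were lower than in WT, and Tssk4 did not pass the test. Tssk6 read 7.49, 6.88, 6.00 and 6.73 in srKO, against a lowest value of 8.75, a median of 8.91 and a highest of 9.33 in WT. Every srKO array lay below all WT arrays, by a mean of -2.23 ± 0.20, or 4.69-fold (adjusted p = 1.7e-07).

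Tssk3 read 10.05, 9.96, 10.06 and 10.07 in srKO, against 10.75, 11.05 and 11.29 in WT (-1.02 ± 0.12, 2.03-fold, adjusted p = 2.5e-06). Tssk2 read 10.28, 10.52, 10.09 and 10.51 in srKO, against 11.01, 11.47 and 11.66 in WT (-1.06 ± 0.15, 2.08-fold, adjusted p = 3.1e-05). Neither gene overlapped with WT, and the 4 srKO arrays of Tssk3 were close to each other. Tsks read 9.26, 9.21, 8.99 and 9.16 in srKO, against 9.76, 10.18 and 10.30 in WT (-0.97 ± 0.10, 1.96-fold, adjusted p = 1.3e-06), and it did not overlap either.

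Tssk1 read 8.95, 9.10, 9.24 and 9.52 in srKO, against 9.46, 9.95 and 10.30 in WT. The srKO group was lower by 0.73 on average (-0.73 ± 0.14, 1.66-fold, adjusted p = 0.00071), and 3 of its 4 arrays lay under the lowest WT array. Tssk4 read 7.97, 8.04, 9.17 and 8.85 in srKO, against 8.67, 8.85 and 9.39 in WT. Replicates 1 and 2 lay below all WT arrays, and replicates 3 and 4 lay within their range. Its difference was -0.43 ± 0.21 (adjusted p = 0.16), with a 95% interval from -0.88 to 0.02. It passed the test only without srKO replicate 3, the highest of the srKO arrays (-0.65, adjusted p = 0.03). Over 31 settings the difference ran from -0.65 to -0.20, and the adjusted p from 0.03 to 0.52.

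By the test 5 of 6 genes were lower in srKO, where 10.8% of all genes were, and 4 of 6 lay below WT in every array, where 7.35% did. The median over the 6 genes was -0.996, and that over all genes was 0.03. The prKO and srKO comparisons share the 8 WT arrays.

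In lrKO at 2 months the 6 genes were close to WT. Tssk6 read 9.40, 9.18, 9.11 and 9.09 in lrKO, against a WT range of 8.75 to 9.33, and Tssk2 read 11.40, 11.61, 11.41 and 11.34, against 11.01 to 11.66. The groups overlapped for all 6 genes. Over all genes 0.979% lay below WT in every lrKO array and 0.81% above. None of the 6 passed the limma test, and 0 had an unadjusted p under 0.05, where 0.184% of all genes passed it in either direction. The differences lay between 0.03 (Tssk2) and 0.33 (Tssk4), the lowest adjusted p was 0.70, and the 95% intervals reached from -0.28 to 0.78.

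**Figure D2:**
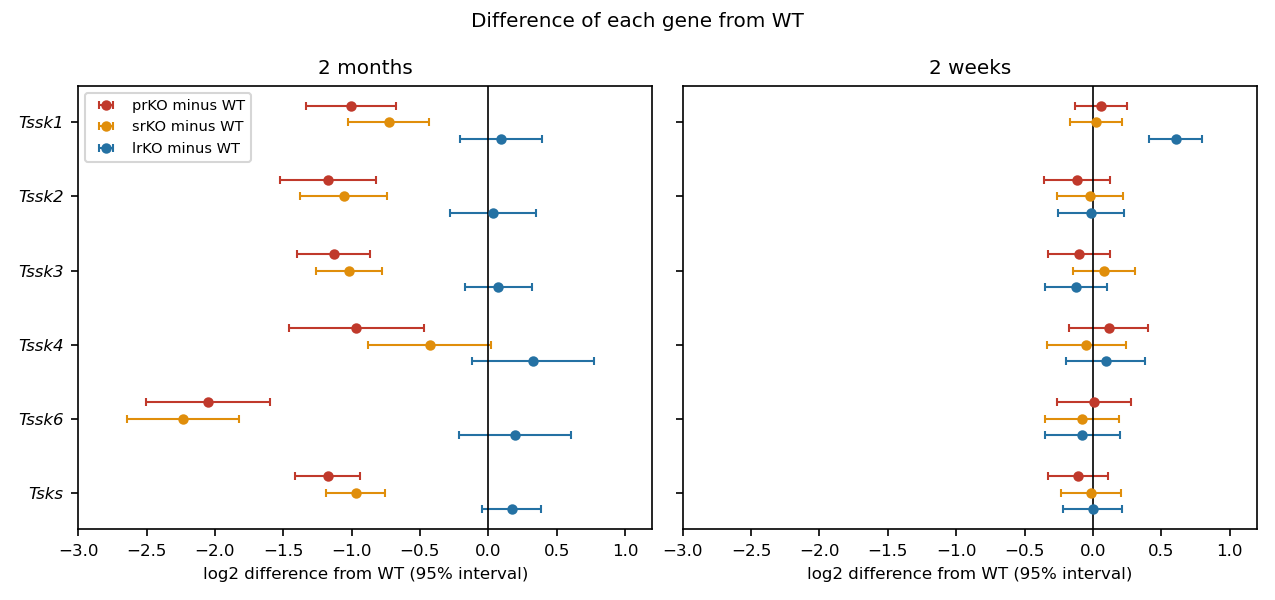
Log2 difference of each knockout line from WT for each gene, with 95% intervals from limma, at 2 months (left) and 2 weeks (right). At 2 months the prKO differences lie between -2.05 and -0.97 and the lrKO differences between 0.03 and 0.33, and at 2 weeks Tssk1 in lrKO stands at 0.60.

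The lines were then compared with each other at 2 months. All 6 genes were lower in prKO than in lrKO (20.1% of all genes passed downward), from -1.10 in Tssk1 to -2.24 in Tssk6, and all 6 were lower in every array, where 19.4% of all genes were. All 6 were also lower in srKO than in lrKO, where 11.2% of genes passed downward, from -0.76 in Tssk4 (adjusted p = 0.028) to -2.42 in Tssk6. All 6 lay lower in every srKO array than in any lrKO array, where 12.1% of genes did. The Tssk4 call was lost without the arrays high in Adam7 (-0.59, adjusted p = 0.076) and without srKO replicate 1 or replicate 2 (adjusted p = 0.11 for each). It was also lost with the replicate number as a block (adjusted p = 0.052) and without lrKO replicate 1, 2 or 3 (adjusted p = 0.056, 0.062 and 0.051).

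Between prKO and srKO, 0 of 6 genes passed the limma test and 0 had an unadjusted p under 0.05, where 25.6% of all genes passed. The differences lay between -0.54 (Tssk4, 95% interval -1.09 to 0.02, adjusted p = 0.15) and 0.18 (Tssk6, -0.33 to 0.69, adjusted p = 0.62). Without the arrays high in Adam7, Tssk1 (-0.54, adjusted p = 0.019) and Tssk4 (-1.03, adjusted p = 0.0098) were lower in prKO, and without prKO replicate 1 Tssk4 was (-0.85, adjusted p = 0.023). The first setting left out prKO replicate 1 (Adam7 11.70) and srKO replicate 1 (Adam7 5.56, just above the limit of 5.5). In both genes these were the highest prKO array and the lowest srKO array, such as 8.60 and 7.97 in Tssk4. In order of mean level at 2 months, lrKO and then WT stood highest for each of the 6 genes, and these neighbours did not differ by the test. The group of lowest mean was prKO for Tssk1, Tssk2, Tssk3, Tssk4 and Tsks, and srKO for Tssk6, and these neighbours did not differ by the test either. The group next below WT was srKO, or prKO for Tssk6, and this step was called for all genes but Tssk4.

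At 2 weeks the 6 genes were low in all groups, and 1 difference from WT passed the test. Tssk1 read 6.12, 6.12, 6.26 and 6.14 in lrKO, against a lowest value of 5.36, a median of 5.54 and a highest of 5.79 in WT. Every lrKO array lay above every WT array. The difference was 0.60 ± 0.09, or 1.52-fold (limma, adjusted p = 0.0085), and Tssk1 was 1 of 6 genes higher, where 0.0368% of all genes were, and 1 of 6 above WT in every array, where 0.384% were. The call was lost when WT was limited to replicates 5 to 8 (0.57, adjusted p = 0.065) and when lrKO replicate 3 was left out (0.57, adjusted p = 0.079). Of the other 5 genes none passed (0 at an unadjusted p under 0.05).

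Tssk1 was also lower in prKO than in lrKO at 2 weeks (-0.55, adjusted p = 0.0019), where 6% of all genes were lower, and lower in srKO than in lrKO (-0.58, adjusted p = 0.0075), where 0.405% were. In each of these comparisons 1 of 6 genes passed the test. The mean level of the 14 meiotic prophase genes lay between 9.16 and 9.48 in lrKO, against 8.53 to 9.45 in WT, and 0 of 14 passed the test in lrKO (0 at an unadjusted p under 0.05). The part of germ cell stage in the Tssk1 difference was not tested.

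In prKO at 2 weeks 0 of 6 genes passed the limma test against WT, where 10.5% of all genes did, and in srKO 0 of 6 passed, where 0.873% did. No gene had an unadjusted p under 0.05 in either comparison. The 95% intervals of the 6 differences reached from -0.36 to 0.40 in prKO and from -0.35 to 0.31 in srKO. Between prKO and srKO 0 of 6 passed at 2 weeks (0 unadjusted), where 11.8% of all genes did.

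Whether the difference from WT itself changed between the ages was tested as an interaction. In prKO all 6 genes had a lower difference from WT at 2 months than at 2 weeks, where 12.3% of all genes did, with values between -2.06 (Tssk6) and -1.03 (Tssk3). Of all interaction calls in prKO 56.3% were upward, and 44.4% were after centring. In srKO 5 of 6 did, where 8.76% of all genes did, from -2.15 in Tssk6 to -0.75 in Tssk1, and Tssk4 did not pass (-0.38, adjusted p = 0.36). At 2 weeks the group means of the 6 genes lay between 4.85 and 6.36, with no background call, and no prKO or srKO difference from WT passed there. The interaction values are thus close to the 2-month differences, such as -2.06 beside -2.05 for Tssk6 in prKO, and are not separate support for them. In lrKO 0 of 6 passed the limma test, where 0.1% of all genes did, and 1, Tssk1, had an unadjusted p under 0.05 (-0.51, adjusted p = 0.44).

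Genes that work with the kinases were read from a list of 13, of which 10 were tested. In prKO at 2 months 6 of 10 were lower, 1 was higher, and the median was -0.49. The median of all genes was 0.02, and 22.4% of them passed downward and 26% upward. Cabyr, a calcium-binding protein of the sperm tail, was lower by 0.92 (-0.92, adjusted p = 8.2e-05), Tssk5, another family member, by 0.76 (-0.76, adjusted p = 0.013), and Pdpk1, a kinase that phosphorylates Tssk3 in vitro, by 0.62 (-0.62, adjusted p = 0.00029). Hspa8, a heat shock protein, was 0.80 higher (adjusted p = 2.7e-07). In srKO 4 of 10 were lower and 2 were higher, where 10.8% of all genes were lower and 14.7% higher, and the median was -0.09. There Pdpk1 differed by -0.68 (adjusted p = 9.7e-05), Odf2, the Tssk4 substrate, by -0.54 (adjusted p = 6.8e-06), the transcription factor Crem by -0.46 (adjusted p = 0.0009) and Cabyr by -0.45 (adjusted p = 0.023).

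Of 13 other male germ cell kinases and phosphatases tested, 9 were lower and 1 was higher in prKO at 2 months, with a median of -0.34. Over all genes 22.4% were lower and 26% higher. Camk4, a calmodulin-dependent kinase of spermatids, differed by -1.49 (adjusted p = 7.4e-07), the phosphatase Dusp21 by -1.47 (adjusted p = 0.00033), the male germ cell-associated kinase Mak by -0.53 (adjusted p = 2.5e-05) and the protein kinase A catalytic subunit Prkacb by 0.53 (adjusted p = 8.6e-05). Unlike Camk4, Dusp21 and Mak, Prkacb had a lower WT mean at 2 months (7.03) than at 2 weeks (8.59). Its level thus did not rise with age as theirs did. In srKO at 2 months, 2 of 13 were lower, a share near the 10.8% of all genes, and none was higher, with a median of -0.06. These were Dusp21 (-1.68, adjusted p = 7.6e-05) and Camk4 (-1.28, adjusted p = 4e-06).

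Regulators of the spermatid programme were lower in 12 of 14 cases in prKO at 2 months, none was higher, and the median was -0.39. Over all genes 22.4% were lower and 26% higher. Fhl5, the coactivator of CREM, differed by -0.82 (adjusted p = 0.00043), the transcription factor Sox30 by -0.78 (adjusted p = 1.2e-06), the TFIID component Taf7l by -0.71 (adjusted p = 0.00025) and the RFX factor Rfx4 by -0.64 (adjusted p = 8.5e-05). Fhl5 went the other way at 2 weeks, 1.43 higher in prKO than in WT (limma, adjusted p = 1.3e-05). Another of the regulators, Tbpl1, differed by -0.46 there (adjusted p = 0.012). In srKO at 2 months, 3 of 14 were lower and 1 was higher, where 10.8% of all genes were lower and 14.7% higher. The median was -0.11. Fhl5 differed by -0.97 there (adjusted p = 7.5e-05), Crem by -0.46 and Sox30 by -0.27 (adjusted p = 0.019).

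Germ cell stages were then set beside the 6 genes. In prKO at 2 months 12 of 13 elongating spermatid genes were lower and 1 was higher, with a median of -1.09, close to the -1.15 of the 6 genes. Prm1 and Prm3, which encode protamine 1 and a protamine-like protein, differed by -1.53 and -1.41, Spem1, needed for the shedding of spermatid cytoplasm, by -1.40, and Akap4, a scaffold of the sperm tail's fibrous sheath, by -1.25. Of round spermatid genes 11 of 14 were lower (median -0.55), of meiotic prophase genes 8 of 14 (median -0.38), and of spermatogonial genes 4 of 12 were lower and 4 higher (median -0.10). Over all genes 22.4% were lower and 26% higher. Odf1, the 1 elongating spermatid gene called higher in prKO, had 2 single-symbol probe sets that disagreed. At 2 months the one used averaged 10.09 in prKO, 9.69 in srKO and 9.63 in WT. The other averaged 10.32 in prKO, 10.62 in srKO and 11.45 in WT. In WT at 2 weeks the one used averaged 10.004 and the other 5.361. Only the other probe set thus had a higher mean in WT at 2 months than at 2 weeks, and its means were lower in prKO and srKO. The Odf1 calls rest on the probe set used, and which of the 2 reads the gene was not tested.

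In srKO at 2 months 12 of 13 elongating spermatid genes were lower and none was higher, with a median of -1.16. Prm1 differed by -2.34, Tnp1 and Tnp2, which encode the transition proteins, by -1.89 and -1.84, and Prm3 by -1.78. Fewer genes of the earlier stages were called, where 10.8% of all genes were lower and 14.7% higher. Of round spermatid genes 3 of 14 were lower and 1 higher (median -0.18). Of meiotic genes 2 of 14 were lower and 1 higher (median 0.06), counts near these shares. Of spermatogonial genes 0 of 12 were called by limma (2 at an unadjusted p under 0.05). Between prKO and srKO, 6 of 14 round spermatid genes, 7 of 14 meiotic genes and 9 of 14 regulators were lower in prKO, where 12.1% of all genes were, and 1 of 13 elongating spermatid genes was. Of the 6 kinase and Tsks genes 0 were called by limma (0 at an unadjusted p under 0.05), 2 were lower without the arrays high in Adam7, and 1 was lower without prKO replicate 1. Whether the lists differ in these counts was not tested.

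**Figure D3:**
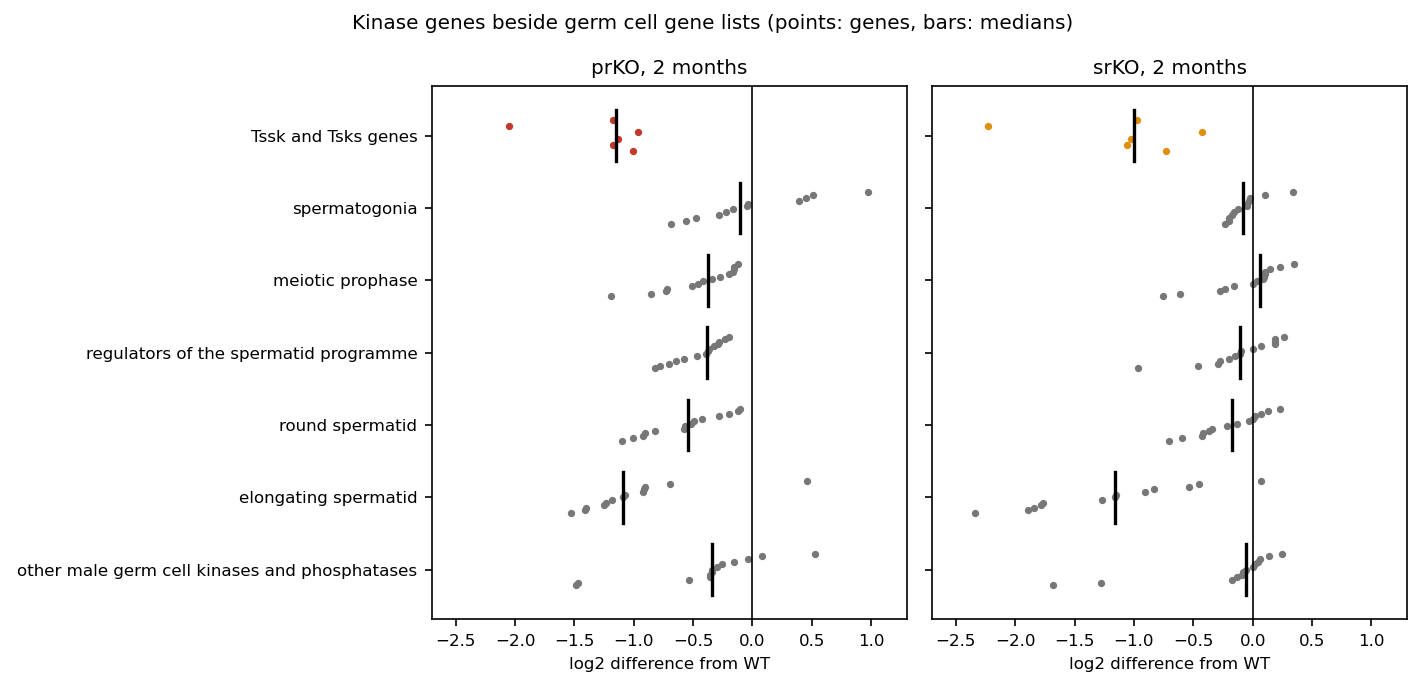
Log2 difference from WT at 2 months of each tested gene of the lists, in prKO (left) and srKO (right), with bars at the medians. The 6 kinase and Tsks genes have medians of -1.15 in prKO and -0.996 in srKO, and the elongating spermatid genes -1.09 and -1.16.

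Markers of other testis cells moved with these groups. Over all genes 26% were higher and 22.4% lower in prKO at 2 months, and 14.7% were higher and 10.8% lower in srKO. At 2 months 7 of 7 macrophage genes were higher in prKO (median 0.98) and 6 of 7 in srKO (median 0.79). The mean macrophage level lay between 7.44 and 8.15 in prKO, between 7.48 and 7.98 in srKO and between 6.79 and 6.95 in lrKO, against 6.64 to 6.98 in WT. Of 5 endothelial genes 5 were higher in prKO and 4 in srKO, and of 5 myoid genes 4 and 2. Of 11 Sertoli genes 6 were higher and 3 lower in prKO, and 3 higher and 2 lower in srKO, and of 6 Leydig genes 3 were higher and 1 lower in each. Of 4 epididymal genes 0 passed the limma test in prKO or srKO (0 unadjusted). Array values have no true zero, so the absence of a marker cannot be read from them, and the part of these cells in the differences of the kinase genes was not tested.

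Across the 19 arrays at 2 months, which share the 4 groups and their differences, the 6 genes varied together. Pearson's r between pairs ran from 0.59 (Tssk4 and Tssk6) to 0.97 (Tssk3 and Tsks). After each group's mean was subtracted it ran from -0.34 (Tssk4 and Tssk6) to 0.85 (Tssk1 and Tssk3). These values are a description over arrays and carry no test.

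By likeness of pattern over the same 19 arrays, the genes nearest to each were named by r. For Tssk6 these were Abhd16b and Tppp2 (both 0.99) and Osgin1 (0.99), and for Tssk2 Dnaja4, Spz1 and Spata19 (all 0.98). Tssk3 was nearest to Ankef1 (0.99), Fam205c and Vwa3a (both 0.98), and Tsks to Akap1, Vwa3a and Fam243 (all 0.99). Tssk1 was nearest to Ankrd53 (0.98), Plcz1 and Odf3 (both 0.97). Tssk4 had the least near neighbours, Odf3l1, Spaca5 and Plac8l1, all at 0.96. Their log2 differences in prKO and srKO at 2 months were -2.23 and -2.24 for Abhd16b and -2.08 and -2.09 for Tppp2, beside -2.05 and -2.23 for Tssk6. Plac8l1 differed by -1.26 in prKO and -0.31 in srKO, beside -0.97 and -0.43 for Tssk4. The nearest genes were picked by likeness over these same arrays, so alike differences follow from that choice.

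Single arrays of srKO did not rank alike across the genes. In prKO at 2 months replicate 2 had the lowest value of all 3 arrays for each of the 6 genes. In srKO replicate 3 had the lowest Tssk6 value (6.00) and Tsks value (8.99) of its group, but the highest Tssk4 value (9.17). Tnp1 read 11.24, 10.87, 8.58 and 10.10 in srKO replicates 1 to 4, against 11.85 to 12.30 in WT, and Prm1 read 10.35, 9.79, 7.69 and 9.20, against 11.27 to 11.81. Replicate 3 was the lowest in both, as in Tssk6, whereas Tssk4 ran the other way in this array.

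**Figure D4:**
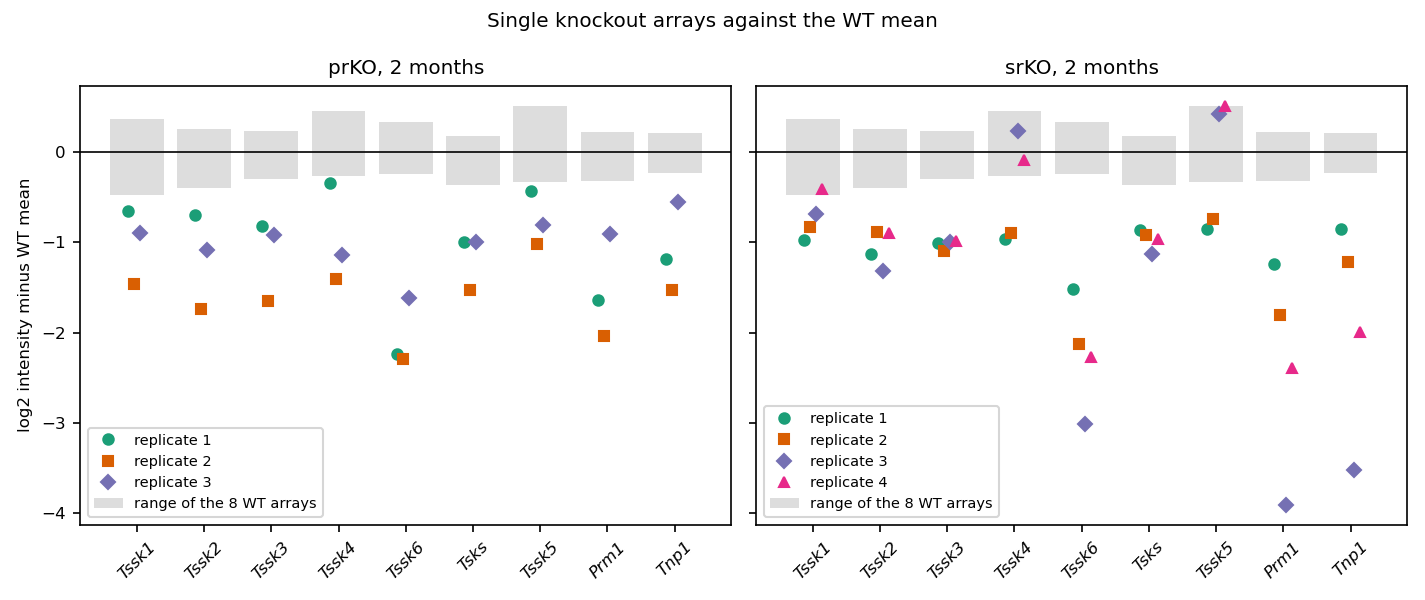
Log2 intensity of each knockout array at 2 months minus the WT mean, for the 6 genes, Tssk5, Prm1 and Tnp1, in prKO (left) and srKO (right). Grey boxes span the 8 WT arrays, and srKO replicates 3 and 4 fall within them for Tssk4 (9.17 and 8.85) and Tssk5 (8.84 and 8.92).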

How the data were processed

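Affymetrix array values were deposited as log2 intensities per probe set, which the authors normalized with RMA, per the submitters' processing notes. No source used here gives the RMA version and settings or the array's genome build. Of 41345 probe sets, the platform annotation gave 1 symbol to 23521, several to 1814 and none to 16010, and only the first kind was used, with 1 probe set per gene (highest mean). Of 22180 genes, 19007 were tested, namely those with at least 1 of 8 group means above the 25th percentile of the table (4.62).

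Groups came from the titles. limma 3.58.1 (lmFit, eBayes) in R 4.3.3 was fitted to the 4 genotypes of an age, or to all 8 groups where ages were compared. The two-sided p-values were adjusted by Benjamini and Hochberg's method across the 19007 genes, and 0.05 was the threshold. Values after ± are SE for differences. Arrays have no read depth, so their number limits the precision. The titles call the arrays biological replicates. The text names the 6 genes, Prkar1a, up to 4 genes per list with the largest changes, and the 3 genes of most similar pattern for each of the 6. The 6 genes and the lists were chosen with earlier results of these data known. Genes without a single-symbol probe set, such as Prm2, Sycp3, Tsacc and Insl3, are not analysed here. Alternatives were other filters, averaged probe sets, quantile normalization, centring, array weights, other sample sets and the replicate number as a block. The fit code was tested on simulated data.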

Additional observations from a re-analysis of the deposited data

Results flagged for a closer look

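One array stood apart from its group. Tsks read 9.76 in WT replicate 8 at 2 months, and the nearest other WT array read 10.06. Of 42 groups of 4 or 8 arrays checked, this was the only one. Chance alone would give about 1 in every 20 groups checked, so 1 among 42 is no more than chance would give.

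The prKO and srKO lines differed from lrKO in kinase genes by direct tests (limma, adjusted over all genes tested), and between prKO and srKO 0 of 6 genes were called at either age (0 at an unadjusted p under 0.05). At 2 weeks Tssk1 differed by -0.55 in prKO against lrKO and by -0.58 in srKO against lrKO. At 2 months the prKO and lrKO lines differed by -1.1 in Tssk1, -1.2 in Tssk2, -1.2 in Tssk3, -1.29 in Tssk4, -2.24 in Tssk6 and -1.35 in Tsks. At that age the srKO and lrKO lines differed by -0.82 in Tssk1, -1.09 in Tssk2, -1.09 in Tssk3, -0.76 in Tssk4, -2.42 in Tssk6 and -1.14 in Tsks. The Tssk4 call between srKO and lrKO was lost with the replicate block (adjusted p = 0.052), without the arrays high in Adam7 (adjusted p = 0.076) and without any 1 of srKO replicates 1 and 2 and lrKO replicates 1, 2 and 3 (adjusted p between 0.051 and 0.11).

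The difference from WT also differed between 2 months and 2 weeks by the interaction test. In prKO the 2-month difference minus the 2-week difference was -1.07 in Tssk1, -1.06 in Tssk2, -1.03 in Tssk3, -1.08 in Tssk4, -2.06 in Tssk6 and -1.07 in Tsks. In srKO the values were -0.75 in Tssk1, -1.03 in Tssk2, -1.1 in Tssk3, -2.15 in Tssk6 and -0.96 in Tsks. The genes were low in all groups at 2 weeks, so these values nearly restate the 2-month differences. The comparisons of lines within an age share arrays with those against WT.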

How the results depend on the processing

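Of 176 recomputed counts of the 6 genes under settings other than leaving out 1 array, 174 stayed within 1.5 times the reported count. In lrKO against WT at 2 weeks the count was 0 with WT replicates 5 to 8. In prKO against srKO at 2 months it was 2 without the arrays high in Adam7, replicate 1 of each line among them. With 1 array left out at a time, the count ran from 0 to 1 in lrKO against WT at 2 weeks, from 5 to 6 in srKO against WT at 2 months, from 0 to 1 in prKO against srKO at 2 months and from 5 to 6 in srKO against lrKO at 2 months. It did not move in the other 12 comparisons, and no gene's direction reversed where it had been called. In the srKO and lrKO comparison at 2 months Tssk4 had an adjusted p of 0.056, 0.062 and 0.051 without lrKO replicates 1, 2 and 3.

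With the replicate number as a block, 6 genes were called in prKO against WT, 5 in srKO against WT and 5 in srKO against lrKO at 2 months, where Tssk4 had -0.76 (adjusted p = 0.052), and the calls in other comparisons kept their counts. The numbers are shared labels only: of 45 pairs of same-numbered arrays 8 had correlated deviations above 0.1, over a range from -0.62 to 0.44, and 4 correlated best with their own number.

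Counts over all genes moved by more than 1.5 times in several comparisons. Those against WT at 2 weeks ran from 598 to 4802 in prKO (1994 reported), from 33 to 2234 in srKO (166) and from 3 to 942 in lrKO (19). The highest of these counts came with WT replicates 5 to 8 in prKO, with array weights in srKO and with WT replicates 1 to 4 in lrKO. The choice of WT arrays thus moved the counts. Between lines at 2 weeks they ran from 1415 to 3650 in prKO against srKO (2234), from 1728 to 4911 in prKO against lrKO (3121) and from 96 to 2762 in srKO against lrKO (370). The interaction counts ran from 2447 to 4975 in srKO (3278) and from 11 to 87 in lrKO (19). At 2 months lrKO against WT ran from 16 to 145 (35) and prKO against srKO from 1083 to 5253 (4860). The cause was not tested. At 2 weeks the group means of the 6 genes lay between 4.85 and 6.36. Those of Tssk2 lay nearest to the lower limit of 4.62 used for testing, and those of Tsks lay furthest above it. No background call per array was analysed here.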

Other observations

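Tssk5, a further family member with its own probe set, was chosen for a closer description after its values were seen. It read 7.98, 7.40 and 7.62 in prKO at 2 months and 7.57, 7.68, 8.84 and 8.92 in srKO, against 8.09 to 8.93 in WT. In srKO replicates 1 and 2 lay below all WT arrays, and replicates 3 and 4 lay within their range, as for Tssk4. The srKO difference was -0.17 (adjusted p = 0.64), and the prKO difference was -0.76 (adjusted p = 0.013).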
